A study of Mus musculus with 32 samples.

Results

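Neurofilaments are the main intermediate filaments of large axons. The light chain, encoded by Nefl, assembles with the medium chain (Nefm) and the heavy chain (Nefh), whose long phosphorylated tails project from the filament and space it from its neighbours. Peripherin (Prph) and α-internexin (Ina) are 2 related neuronal filament proteins that can assemble with them, peripherin mostly in neurons with axons in the periphery and α-internexin mostly in central neurons. Motor neurons are rich in these proteins, and filament accumulations in their cell bodies and axons are a known feature of amyotrophic lateral sclerosis.

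The values described here are those of the 5 genes Nefl, Nefm, Nefh, Prph and Ina, out of 27573 genes or single probes on the array. They were read by every non-control probe that carried their names, 7 probes out of 41174. Gene expression had been measured on 32 Agilent mouse arrays with 2 colours, in lumbar anterior horn motor neurons taken by laser capture and in the cells surrounding them, here called glia. SOD1-G93A mice (strain B6SJL-Tg(SOD1-G93A)1Gur) and their non-transgenic B6SJL littermates were female and 8 weeks old. TAU-P301L mice (B6D2F1-Tg(TAU-P301L)) and their B6D2F1 littermates were female and 16 weeks old, so model, age and strain differ together between the 2 colonies. About 500 cells were collected per mouse, and each extract of RNA was amplified before labelling. Each array set 1 transgenic against 1 littermate control extract. There were 4 littermate pairs in each of 4 comparisons (SOD1-G93A motor neurons, SOD1-G93A glia, TAU-P301L motor neurons and TAU-P301L glia), with 2 arrays for each pair in which the dyes traded places. The pair is the replicate, so its 2 arrays give 1 value. A ratio is the log2 of transgenic over control, averaged over the 2 arrays of a pair, and a level is the normalized log2 intensity of 1 extract.

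Nefl was read by 2 probes on chromosome 14 of the mm8 build, the first at 67040911 to 67040971 (accession NM_010910) and the second at 67042139 to 67042198 (AK149219), both on the plus strand and with starts 1228 bases apart. The motor neuron files gave the second probe another accession, AK039580. Nefm lies on the same chromosome and was read by 1 probe on the minus strand at 67073466 to 67073525 (NM_008691). Nefh was read by 2 probes on chromosome 11, the first at 4838918 to 4838977 and the second at 4839629 to 4839688, both on the minus strand (NM_010904). Prph, named Prph1 in the files, was read at 98884900 to 98884959 of chromosome 15 (NM_013639), and Ina at 47077871 to 47077930 of chromosome 19 (NM_146100), both on the plus strand. Which exon or untranslated region a probe reads was not analysed here. For Nefl and Nefh the brighter probe, called the first, stands for the gene, and the values of the other are given separately.

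The share of probes well above background ran from 14.8% to 77.6% over the channels of the motor neuron arrays and from 9% to 79.3% over those of the glia arrays. In control extracts, 6 of 13 tested motor neuron markers and 5 of 9 tested general neuronal markers were higher in motor neuron captures, while 5 of 9 astrocyte and 5 of 9 oligodendrocyte markers were higher in glia captures. Interneuron markers were higher in motor neurons too (4 of 7), and 2 motor neuron markers were higher in glia. Over all genes tested, 27.2% were called higher in motor neurons and 11.6% lower. Motor neuron and glia arrays were scanned separately and with different versions of the scanner software, so cell type cannot be told apart from scan. Over the genes tested, the 2 dye-swapped arrays of a pair correlated from -0.745 to 0.672, and 5 of the 16 pairs had a correlation below 0: SOD1-G93A glia pairs 1 and 2, TAU-P301L motor neuron pair 3 and TAU-P301L glia pairs 1 and 3. Of the genes named by the transgenes, the mouse Sod1 probe had a mean ratio of -0.08 ± 0.16 (SD, n = 4) in motor neurons and -0.11 ± 0.30 in glia of SOD1-G93A mice. The Mapt probe had -0.10 ± 0.35 and 0.08 ± 0.76 in the same cells of TAU-P301L mice. Whether these probes can read the transgene RNA was not analysed here, so neither checks the labels. The Prnp probe lay above 0 in all 4 pairs of both TAU-P301L comparisons, at 1.08 ± 0.30 in motor neurons and 0.89 ± 0.20 in glia, and averaged -0.29 ± 0.33 and -0.14 ± 0.58 in those of SOD1-G93A mice.

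One pair stands apart for these genes. In SOD1-G93A motor neuron pair 3, on the array with the transgenic extract in Cy3, the first Nefl spot read 21.6 and 42.9 units against backgrounds of 21 and 40, while the dye-swapped array of the same 2 extracts read 4566 and 21280. Around that spot only 0.9% of neighbouring spots were above background, against 77.6% over the whole array. The first Nefh spot on that array was likewise at background, at 28 and 43.9 units, against 1910 and 6718 on the other array. On the faulty array the second Nefl spot read 114.4 and 61.5 units, against 1754 and 2528 on the other. The second Nefh spot read 59.4 and 36 units there, against 130.6 and 898.3. Of 288 probes bright on the dye-swapped array, 53 were at background on this one, and 106 of 306 the other way round; 1 further spot, on a TAU-P301L glia array, had the same fault among the other 30 arrays. The averaged levels of Nefl and Nefh in this pair include these spots. The control levels and correlations of their first probes are given with and without this pair, and its ratios also from the dye-swapped array alone. That array had bright probes at background too, so it was not shown to be sound. Nefm disagreed between the arrays too, at 0.62 on the faulty array and -0.55 on the other. The SOD1-G93A motor neuron ratios of Nefm, Prph and Ina include this pair. Its arrays correlated at 0.001, so it stays in results that leave out pairs correlating below 0.

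In control mice, the filament genes were higher in motor neuron than in glia captures. By limma with Benjamini-Hochberg adjustment over 13038 genes, 4 of the 5 passed the threshold of 0.05 and all 4 were higher in motor neurons, where 38.8% of all genes tested passed, 27.2% in that direction and 11.6% in the other. Prph and Ina entered this test through the motor neurons alone, with 5 and 7 of 8 motor neuron extracts above background on both arrays but 1 and 0 of 8 glia extracts, so their calls are not independent of the filter. The median difference of the 5 genes was 0.82 on the log2 scale, beside 0.11 over all genes tested. Nefm had the clearest difference. Its level in the 8 control motor neuron extracts ran from 7.82 to 9.09 with a median of 8.33, and in the 8 control glia extracts from 6.15 to 7.26 with a median of 6.61. Every motor neuron extract lay above every glia extract, as was true of 5.4% of the genes with a full set of values. The difference was 1.67 ± 0.18 (SE), a 3.18-fold higher level (adjusted p = 9.94e-05).

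Ina, the α-internexin gene, also had no overlap between the cell types, beside the same 5.4% of genes. With 0 of 8 glia extracts above background on both arrays, this lack of overlap is not independent of the filter. The Ina level ran from 6.37 to 7.05 (median 6.67) in motor neurons and from 5.90 to 6.23 (median 6.04) in glia. The difference was 0.66 ± 0.10 (SE, adjusted p = 0.000337). Its spot was well above background on 15 of 16 motor neuron channels but on 4 of 16 glia channels, so the glia level is mostly that of the background and the difference is compressed. Under the scanner software's own background subtraction the Ina difference was 2.04. Prph, which encodes peripherin, was closer to background in both cell types, with 13 of 16 motor neuron and 3 of 16 glia channels above it. Its level ran from 6.03 to 6.64 in motor neurons and from 5.93 to 6.36 in glia, so the groups overlap, and the difference was 0.28 ± 0.07 (SE, adjusted p = 0.01), measured against a glia level that is mostly background. By the scanner software's background subtraction it was 0.97. The Prph call did not hold in the TAU-P301L colony alone (0.11, adjusted p = 0.504) or when spots at background were left out (0.14, adjusted p = 0.312).

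Nefl, the light chain on which the filament is built, was higher in motor neurons by 1.39 ± 0.51 (SE, adjusted p = 0.0449), close to the threshold. Its first probe ran from 9.73 to 13.57 (median 13.28) in control motor neurons and from 9.77 to 12.31 (median 11.47) in glia. The other motor neuron extracts lay between 12.50 and 13.57, and the lowest was that of SOD1-G93A pair 3. With spots at background left out, that extract read 13.55 and the difference became 1.87 (adjusted p = 0.00114). Nefh, the heavy chain, did not pass, at 0.82 ± 0.45 (SE, adjusted p = 0.162), with motor neuron levels from 8.995 to 13.01 and glia levels from 10.25 to 12.09. Its lowest motor neuron extract came from the same pair. Without that extract Nefh was higher by 1.25 (adjusted p = 0.00131) and Nefl by 1.84 (adjusted p = 0.000818), and 5 of 5 genes passed. The Nefl call was lost when any 1 of 12 other control extracts was left out, those being replicates 1, 2 and 4 of the SOD1-G93A colony and all 4 of the TAU-P301L colony in motor neurons, and replicates 3 and 4 and replicates 1, 2 and 4 of these colonies in glia. The Nefl difference then ran from 1.16 to 1.48, with adjusted p from 0.0519 to 0.0883.

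The direction was the same within each colony for all 5 genes. In the SOD1-G93A colony 3 of 5 were called higher in motor neurons, beside 8.77% of all genes: Nefm by 1.91 (adjusted p = 0.00169), Ina by 0.59 (0.0158) and Prph by 0.45 (0.018). In the TAU-P301L colony 2 of 5 were, beside 16.1%: Nefm by 1.43 (adjusted p = 0.00512) and Ina by 0.73 (0.00539). Prph and Ina again entered through the motor neurons alone, so their directions and calls here are not independent of the filter. Nefl differed by 1.30 and 1.49 in the 2 colonies without passing in this shared fit (adjusted p = 0.238 and 0.152), although the TAU-P301L colony fitted alone did call Nefl (adjusted p = 0.0258). Nefh differed by 0.77 and 0.87 (adjusted p = 0.432 and 0.335).

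The second probes read these genes differently. The second Nefl probe showed a difference of 0.11 ± 0.37 (SE, adjusted p = 0.823) between the same extracts, with levels from 8.96 to 11.54 in motor neurons and from 9.06 to 11.27 in glia. Taking the median over both probes, the Nefl difference was 0.75 (adjusted p = 0.171). The second Nefh probe lay closer to the first, at 0.68 ± 0.26 (SE, adjusted p = 0.0507). The Nefl call thus rests on its first probe. Both second probes, however, had their lowest motor neuron level in SOD1-G93A pair 3, where their spots were dim on the faulty array. Unlike those of the first probes, their differences are not given without that extract.

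**Figure D1:**
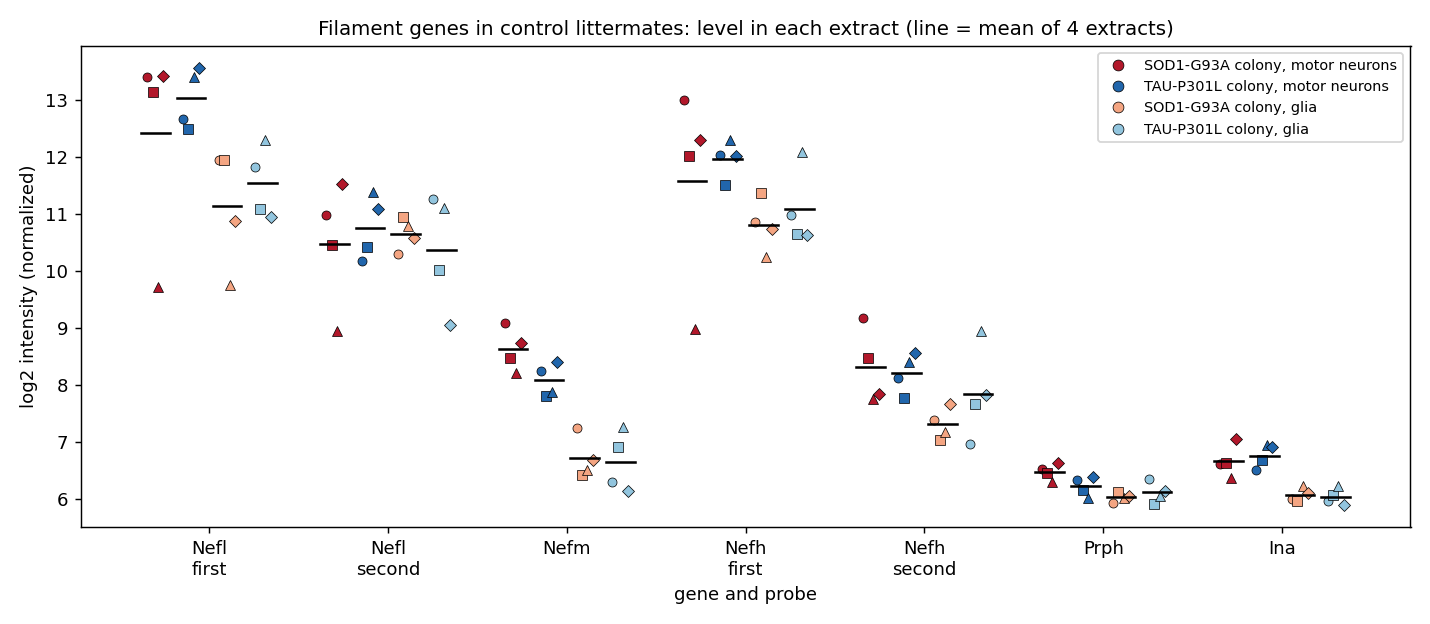
Normalized log2 intensity (y axis) of each filament probe (x axis) in the 16 control extracts, with marker shape for the extract number 1 to 4 (circle, square, triangle, diamond), colour for colony and cell type, and a line at the mean of 4 extracts. For Nefm all 8 motor neuron extracts (7.82 to 9.09) lie above all 8 glia extracts (6.15 to 7.26), and the low red triangles of the first Nefl and Nefh probes (9.73 and 8.995) are the extract with spots at background.

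Between the 2 colonies, none of the 5 genes passed in control motor neurons, where limma called 0.238% of 12601 genes and 1 of the 5 (Prph) and 3.05% of genes had an unadjusted p under 0.05. Nefm was 8.63 ± 0.37 (SD, n = 4) in the B6SJL controls and 8.09 ± 0.28 in the older B6D2F1 controls, and the 95% interval of the difference ran from -1.10 to 0.01. Prph was 6.48 ± 0.14 and 6.23 ± 0.16, with an interval of -0.48 to -0.03. For Ina the values were 6.67 ± 0.28 and 6.77 ± 0.20. In control glia, 3 of the 5 could be tested and 0 passed, with 0.146% of 8889 genes called and with 0 of the 3 and 3.71% of genes at an unadjusted p under 0.05. There Nefm was 6.73 ± 0.37 in the SOD1-G93A colony and 6.66 ± 0.52 in the TAU-P301L colony. The order of the 4 control groups for Nefm was thus SOD1-G93A colony motor neurons, TAU-P301L colony motor neurons, then the 2 glia groups. By limma the cell types differed, while the step between the motor neuron groups, 0.54 with SDs of 0.37 and 0.28, did not pass (adjusted p = 0.978). In bulk captures, fewer cells of a type and less RNA per cell cannot be told apart.

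In SOD1-G93A motor neurons, 5 of 5 filament genes were tested against their littermate controls and 0 passed, beside 0.00752% of 13296 genes. Of the 5, 2 had an unadjusted p under 0.05, Prph and Ina, beside 10.6% of all genes. Their ratios had opposite signs. The Prph ratios of pairs 1 to 4 were -0.39, -0.21, -0.22 and -0.12, a mean of -0.23 ± 0.11 (SD, n = 4) with a 95% interval of -0.34 to -0.13 (limma adjusted p = 0.213). All 4 lay below 0, as did those of 8.05% of the genes tested with 4 values, and 7 of the 8 single arrays read below 0. The Ina ratios were 0.24, 0.41, 0.17 and 0.01, a mean of 0.21 ± 0.17 with an interval of 0.06 to 0.35 (adjusted p = 0.362). All 4 lay above 0, as did those of 5.53% of genes, with 7 of 8 arrays above 0, although pair 4 showed next to no difference. The array counts of Prph and Ina add no replicates to the 4 pairs, and no share over all genes stands beside them.

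Both probes are dim, and the size of their ratios depends on the treatment of the background. Prph spots read 48 to 139 units on these 8 arrays against local backgrounds of 22 to 42. With an offset of 50 added, as in the values above, small ratios result. With an offset of 10 the Prph mean was -0.49 (adjusted p = 0.285), and by the scanner software's own log ratio it was -0.90 (adjusted p = 0.293). Ina moved likewise, to 0.30 and 0.52. The direction held in each of these, and in none did either gene pass.

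The 3 neurofilament subunits had mean ratios below 0 in SOD1-G93A motor neurons, each within the spread between pairs. For the first Nefl probe and for Nefm 7 of 8 arrays read below 0, and for the first Nefh probe 5 of 8. These counts include the Nefl and Nefh spots at background in pair 3, at -0.097 and -0.055. The 2 arrays of a pair are not replicates, and no share over all genes stands beside the counts. Nefl read -0.66, -0.59, -0.27 and 0.41 in pairs 1 to 4, a mean of -0.28 ± 0.49 (SD, n = 4), with a 95% interval of -0.95 to 0.40 (adjusted p = 0.764). Pair 3 was -0.45 when read from its dye-swapped array alone. Nefm, the medium chain, read -0.65, -0.12, 0.03 and -0.18, a mean of -0.23 ± 0.29 with an interval of -0.59 to 0.13 (adjusted p = 0.627). Nefh read -0.89, 0.05, -0.16 and 0.55, a mean of -0.11 ± 0.60 with an interval of -0.75 to 0.52 (adjusted p = 0.912). From its dye-swapped array alone, pair 3 was -0.27 and the Nefh mean -0.14. Pair 1 was the lowest pair for each of Nefl, Nefm, Nefh and Prph, and pair 4 the highest for Nefl and Nefh. In the same pairs the mean ratio of 14 motor neuron markers was -0.24, -0.15, -0.15 and 0.20, and their summed intensity ran from 2490 to 7008 in transgenic and from 3091 to 10023 in control extracts. The part of the captured cells in these ratios was not tested.

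The second Nefl probe had the opposite sign to the first in pairs 2, 3 and 4. It read 0.75 against -0.59 in pair 2, 0.47 against -0.27 in pair 3 and -1.01 against 0.41 in pair 4. Its mean was -0.13 ± 0.87 (SD, n = 4), and 4 of its 8 arrays read below 0. The second Nefh probe had the signs of the first in every pair but at larger size, from -1.92 in pair 1 to 1.604 in pair 4, with a mean of -0.24 ± 1.52 (SD, n = 4).

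**Figure D2:**
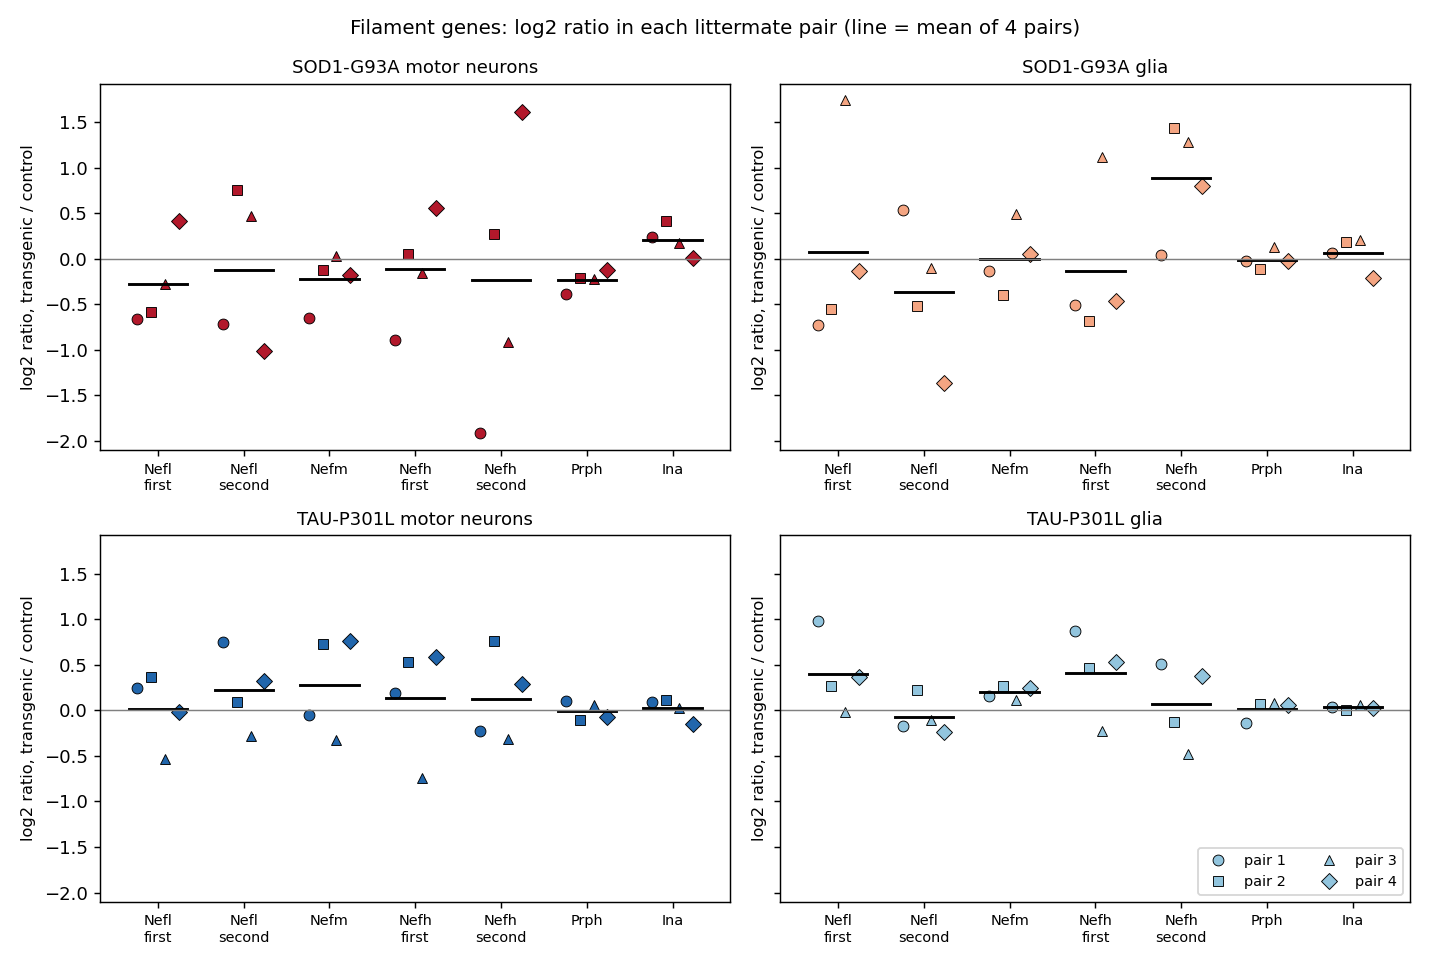
Log2 ratio of transgenic over control (y axis) of each filament probe (x axis) in each littermate pair, 1 panel per comparison, with marker shape for the pair and a line at the mean of 4 pairs. Prph lies below 0 and Ina above 0 in all 4 SOD1-G93A motor neuron pairs, while the Nefl, Nefm and Nefh probes straddle 0 there, from -1.92 to 1.604.

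In SOD1-G93A glia, 3 of the 5 genes were bright enough to test, and 0 passed, beside 0.0766% of 10442 genes; at an unadjusted p under 0.05 the counts were 0 of the 3 and 16.2% of genes. Nefl ratios in pairs 1 to 4 were -0.73, -0.56, 1.74 and -0.14, a mean of 0.08 ± 1.13 (SD, n = 4) with an interval of -0.59 to 0.75. Nefh had the same shape, at -0.51, -0.68, 1.12 and -0.47, a mean of -0.14 ± 0.84. Nefm read -0.13, -0.40, 0.49 and 0.05, a mean of 0.00 ± 0.37 with an interval of -0.36 to 0.36. Pair 3 stood above the other 3 pairs for each of these first probes. The second Nefl probe did not show this, with ratios of 0.53, -0.52, -0.10 and -1.36 and a mean of -0.36 ± 0.79 (SD, n = 4). Without pair 3 the means of the first probes were -0.48 for Nefl and -0.55 for Nefh, with limma adjusted p of 0.31 and 0.335. In pair 3 the control extract had the lowest Nefl level of the 4 glia controls, 9.77 against 10.88 to 11.96, while the transgenic extract at 11.51 was near the other transgenic extracts (10.74 to 11.40). The mean ratio of 9 motor neuron markers was 0.49 in that pair and -0.34 to -0.02 in the others, and that of 9 general neuronal markers was 0.36 and -0.14 to 0.03. Whether the captures of that pair differed in neuronal content was not tested.

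The second Nefh probe lay above 0 in all 4 SOD1-G93A glia pairs, as did 10.9% of genes, at 0.05, 1.43, 1.28 and 0.80. Its mean of 0.89 ± 0.62 (SD, n = 4) did not pass when each probe was fitted on its own (limma adjusted p = 0.299), and the first probe read below 0 in 3 of the same pairs. Prph and Ina were not tested in these glia, where 0 and 2 of 8 extracts were well above background on both arrays. Their mean ratios were -0.01 ± 0.10 and 0.06 ± 0.19.

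In TAU-P301L motor neurons, 4 of the 5 genes were tested and 0 passed; limma called 0 of 11653 genes (0%). At an unadjusted p under 0.05 there were 0 of the 4 and 4.2% of genes. Nefm had the largest mean of the 5 genes, 0.28 ± 0.56 (SD, n = 4, interval -0.08 to 0.64, adjusted p = 0.995), from ratios of -0.06, 0.73, -0.33 and 0.77. The pairs split evenly between both sides of 0. Nefh read 0.19, 0.53, -0.75 and 0.58 (mean 0.14 ± 0.62), and Nefl 0.24, 0.37, -0.54 and -0.02 (mean 0.02 ± 0.40, interval -0.66 to 0.69). Pair 3 was the lowest pair for each of the 3 subunits, and is the pair whose arrays correlated at -0.203; without it the means were 0.48, 0.44 and 0.20 for Nefm, Nefh and Nefl. The second probes averaged 0.22 ± 0.43 for Nefl and 0.13 ± 0.50 for Nefh (SD, n = 4), and pair 3 was their lowest pair too, at -0.28 and -0.32. Ina was close to 0 in every pair, from -0.15 to 0.12, with an interval of -0.12 to 0.16 for its mean of 0.02. Prph, well above background in 3 of 8 extracts and so untested, had a mean of 0.00 ± 0.10, with ratios from -0.11 to 0.11.

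In TAU-P301L glia, 3 of the 5 genes were tested and 0 passed; limma called 0 of 8905 genes (0%). At an unadjusted p under 0.05 there were 0 of the 3 and 13.9% of genes. The first probes of all 3 neurofilament subunits had means above 0. Nefm read 0.16, 0.27, 0.12 and 0.25, above 0 in all 4 pairs as for 10.6% of genes, with a mean of 0.20 ± 0.07 (SD, n = 4, interval -0.16 to 0.56, adjusted p = 0.693). That closeness hides a disagreement between arrays. In pair 1 its 2 arrays read 1.83 and -1.51, and over the 8 arrays 6 lay above 0. Nefl read 0.98, 0.27, -0.02 and 0.36 (mean 0.40 ± 0.42, interval -0.28 to 1.07), and Nefh 0.87, 0.47, -0.23 and 0.53 (mean 0.41 ± 0.46, interval -0.23 to 1.04). The high pair 1 values are means of arrays that disagree, -0.93 and 2.88 for Nefl and -0.36 and 2.09 for Nefh. With pairs 1 and 3 left out, whose arrays correlated below 0, the means were 0.31 for Nefl, 0.26 for Nefm and 0.50 for Nefh, and 0 passed. The second Nefl probe read below 0 in 3 of 4 pairs, at -0.17, 0.23, -0.11 and -0.24 (mean -0.07 ± 0.21, SD, n = 4). The second Nefh probe read 0.51, -0.13, -0.48 and 0.38 (mean 0.07 ± 0.46), so neither repeated the size of its first probe. Prph and Ina were again near background, in 2 and 0 of 8 extracts above it, with means of 0.02 ± 0.10 and 0.03 ± 0.02.

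**Figure D3:**
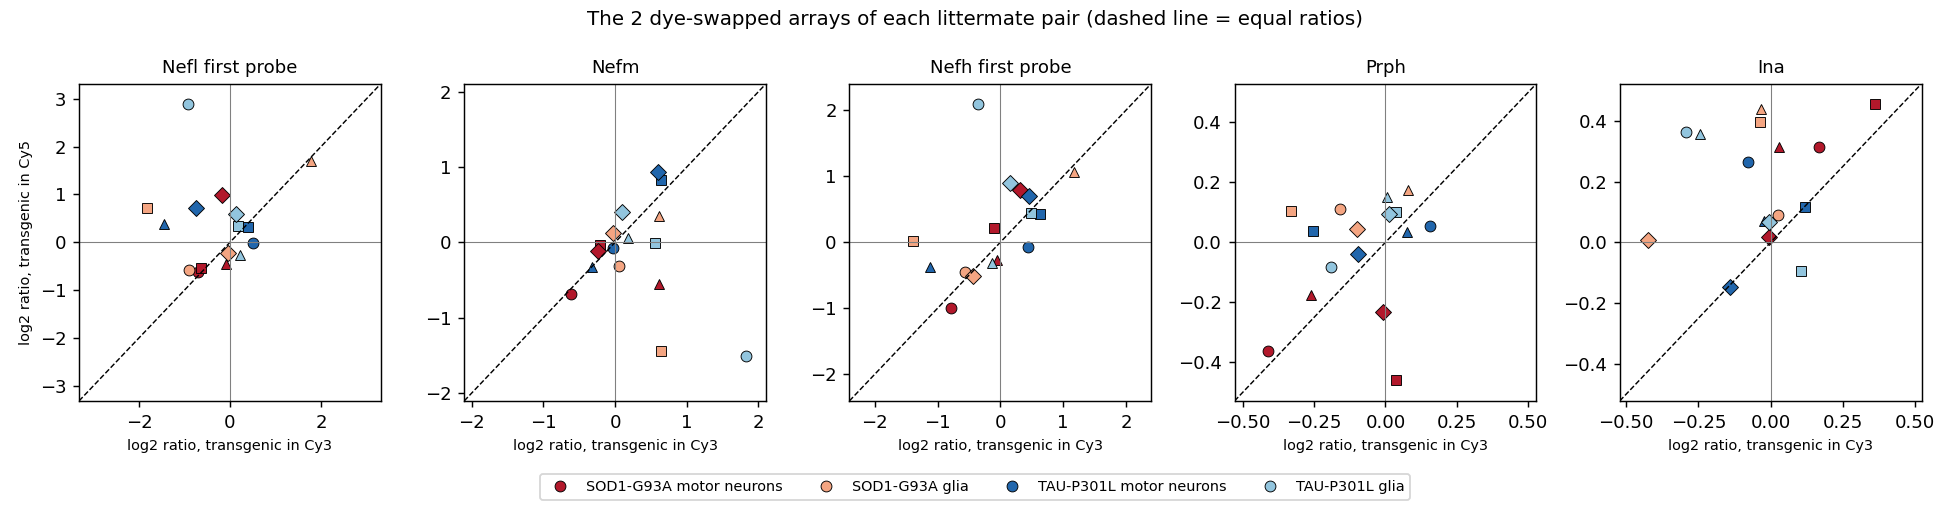
Log2 ratio of transgenic over control on the array with the transgenic extract in Cy3 (x axis) against its dye-swapped partner (y axis), 1 point per littermate pair, with colour for the comparison and marker shape for pairs 1 to 4 (circle, square, triangle, diamond); axis ranges differ between panels. Pairs on the dashed line gave equal ratios; TAU-P301L glia pair 1 lies far from it for Nefl (-0.93 and 2.88), Nefm (1.83 and -1.51) and Nefh (-0.36 and 2.09).

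For the first Nefl probe the 2 arrays had the same sign in 9 of 16 pairs, with a median gap of 0.41 and a largest gap of 3.81 on the log2 scale. For Nefm the sign was shared in 10 pairs (largest gap 3.34), for the first Nefh probe in 12 (2.45), for Prph in 11 (0.50) and for Ina in 6 (0.66). A dye effect cancels in the mean of a pair only if the labels give each array's dyes correctly. For the 5 pairs whose arrays correlated below 0 this was not tested, so the direction of their ratios is uncertain. Their lowest correlations were those of SOD1-G93A glia pair 2 (-0.46) and TAU-P301L glia pair 1 (-0.745). The Prnp ratio, above 0 in every TAU-P301L pair, was 0.96 in TAU-P301L motor neuron pair 3. It was 1.02 and 0.93 in TAU-P301L glia pairs 1 and 3.

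The differences between comparisons were tested in the same limma fit. Motor neurons against glia of the SOD1-G93A mice gave 0 of 5 genes past the threshold, and 0 of 13970 genes in all (0%), with 1 of the 5 and 12.9% of all genes at an unadjusted p under 0.05. That gene was Prph, at -0.23 ± 0.07 (SE, interval -0.38 to -0.07, adjusted p = 0.169). With 0 of 8 glia extracts above background, the Prph ratio in glia carries no measurement of its own, and this difference restates the motor neuron ratio. The difference was -0.11 with spots at background left out and -0.85 by the scanner software's log ratio. SOD1-G93A against TAU-P301L motor neurons gave 0 of 5 and 0 of 13621 genes (0%), with 1 of the 5 and 10.2% of all genes at an unadjusted p under 0.05. Prph differed by -0.23 ± 0.07 (SE, interval -0.38 to -0.08, adjusted p = 0.340), with -0.16 in scan 1 and -0.30 in scan 2. Nefm differed by -0.51 ± 0.24 (SE, interval -1.02 to 0.01, adjusted p = 0.492). For TAU-P301L motor neurons against glia the counts were 0 of 4 and 0 of 12159 genes (0%), with 0 of the 4 and 4.98% of genes at an unadjusted p under 0.05, and for SOD1-G93A against TAU-P301L glia 0 of 3 and 0 of 10926 genes (0%), with 0 and 6.19%. The widest intervals were those of Nefl, from -1.31 to 0.60 between SOD1-G93A motor neurons and glia and from -1.33 to 0.57 between those of TAU-P301L mice (95%). Between the models in glia, Nefl differed by -0.32 and Nefh by -0.55. With scan as a fixed block each differed by -1.27 (limma adjusted p = 0.639 and 0.605). That value rests on pairs 1 and 2 of each model, since the other glia pairs were scanned without the other model. SOD1-G93A glia pairs 1 and 2 and TAU-P301L glia pair 1 are among the pairs whose arrays correlated below 0.

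Within the pairs, the neurofilament subunits varied together by their first probes, while the second probes of Nefl and Nefh correlated at r = -0.268. Over the 16 littermate pairs, the ratios of Nefl and Nefh correlated at r = 0.871 (Spearman rho = 0.876), with a two-sided permutation p of 1e-05, the smallest that 100000 resamples can give, and 3e-05 after adjustment over the 3 relations computed. The rank correlation had a permutation p of 5e-05, adjusted to 0.00015. Without the 2 pairs farthest from the median of Nefl, SOD1-G93A glia pair 3 and TAU-P301L glia pair 1, r was 0.841. It was 0.824 over the 8 motor neuron pairs and 0.936 over the 8 glia pairs, 0.883 with each comparison centred on its mean, and 0.819 without the 5 pairs whose arrays correlated below 0. Nefm and Nefh correlated at r = 0.754 (rho = 0.753, permutation p = 0.00065 and 0.00115, adjusted p = 0.000975 and 0.00172), with 0.792 without the 2 farthest pairs, 0.772 in motor neurons and 0.861 in glia. Nefl and Nefm, neighbours on chromosome 14, had the weakest relation, r = 0.592 (rho = 0.659, permutation p = 0.0149 and 0.00643, the same after adjustment). It was 0.625 without the 2 farthest pairs, 0.566 in motor neurons and 0.839 in glia, and 0.522 (permutation p = 0.101) without the 5 pairs whose arrays correlated below 0. Without SOD1-G93A motor neuron pair 3 the correlations were 0.87 for Nefl and Nefh, 0.595 for Nefl and Nefm and 0.756 for Nefm and Nefh.

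Of 5093 genes with a symbol that were tested in all 4 comparisons, Nefh had the ratios most like those of Nefl, and Nefl the most like those of Nefh. Next for Nefl were Tpd52l1 (r = 0.835) and Tmem38a, and for Nefh Dolk (0.863) and Btbd2 (0.817). Nefm was most like Sv2b, a synaptic vesicle protein gene, at r = 0.923, then Dclk2 (0.895) and Nop2 (0.892). Nefh stood 26th in likeness to Nefm and Nefl 194th. These are descriptions over 16 pairs that share arrays and normalization between genes. The first Nefl and Nefh spots lie far apart on the array, at row 205, column 179 and at row 122, column 16. Both were nevertheless at background on the faulty motor neuron array described above. Whether spot position has a part in their co-variation was not tested.

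The co-variation was closest between first probes. The first Nefl probe correlated with the second Nefh probe at 0.462 over the 16 pairs, 0.71 in motor neurons and 0.261 in glia, and the second Nefl probe with the first Nefh probe at 0.213. With the second probes of both genes, Nefl and Nefh correlated at r = -0.268, Nefl and Nefm at 0.287 and Nefm and Nefh at 0.335. The 2 Nefl probes correlated with each other at -0.058 over the 16 pairs, -0.048 in motor neurons and 0.044 in glia. The 2 Nefh probes correlated at 0.479, which divided into 0.818 in motor neurons and 0.069 in glia.

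**Figure D4:**
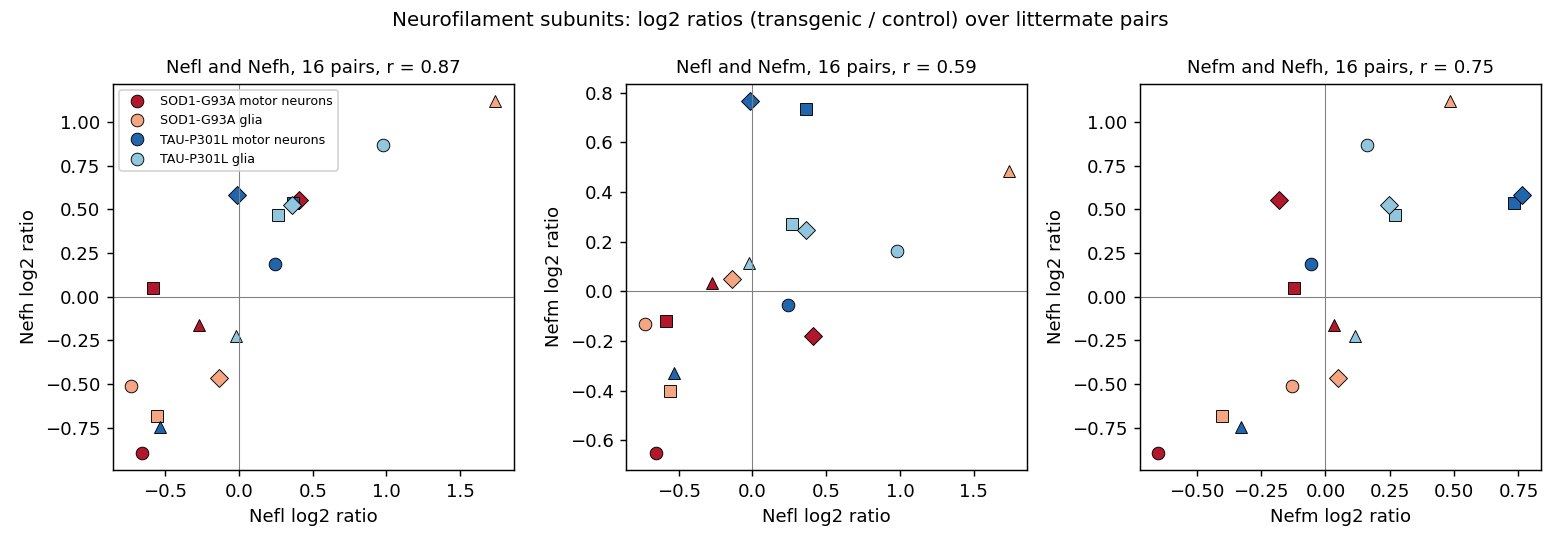
Log2 ratios of transgenic over control of 2 neurofilament subunits against each other, 1 point per littermate pair (16 pairs), coloured by comparison and with marker shape for pairs 1 to 4 (circle, square, triangle, diamond). Nefl and Nefh, each read by its first probe, rise together (r = 0.871), Nefm and Nefh less closely (0.754) and Nefl and Nefm least (0.592).

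Other genes of filament biology gave no calls between transgenic and control mice. Among 13 other intermediate filament genes, 8 linker and turnover genes, 19 kinases and phosphatases that act on filaments, 11 axonal transport genes and 3 genes for proteins that bind neurofilament mRNA, 0 passed in any of the 4 comparisons. In SOD1-G93A motor neurons the smallest p of 4 of these lists were those of Gfap, the astrocyte filament gene, at 0.22 (adjusted p = 0.363), the phosphatase gene Ppp2ca at -0.28 (adjusted p = 0.465), the dynein intermediate chain gene Dync1i1 at -0.31 (adjusted p = 0.313), and Arhgef28, whose product binds Nefl mRNA, at 0.22 (adjusted p = 0.390). In SOD1-G93A glia the kinesin light chain gene Klc2 read -0.44 (adjusted p = 0.0830) and the linker gene Dst -0.61 (adjusted p = 0.0943). The lowest p in TAU-P301L glia was that of Nes, the nestin gene, at -0.49 (adjusted p = 0.192).

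Between control motor neurons and glia these lists did give calls, to be read beside the 27.2% of all genes called higher in motor neurons and the 11.6% called lower. Of 13 tested kinases and phosphatases, 5 were higher in motor neurons and 0 lower. Among them were Cdk5r1, the activator of the neurofilament kinase Cdk5, by 1.02 ± 0.10 (SE, adjusted p = 5.73e-05), Ppp2ca by 1.04, Mapk14 by 0.25 and Cdk5r2 by 0.21. Of 7 linker and turnover genes, 3 were higher and 0 lower, with the ubiquitin ligase genes Trim2 at 0.92 and Stub1 at 0.51 and the linker gene Plec at 0.30. Of 10 axonal transport genes, Dync1i1 was higher by 1.07 ± 0.11 (SE, adjusted p = 7.9e-05) and Klc2 lower (-0.88). Tardbp, which encodes an RNA-binding protein that binds Nefl mRNA, was higher by 0.36. Of 8 other intermediate filament genes only Nes passed, at -1.13 ± 0.27 (SE, adjusted p = 0.00494), higher in glia. The medians of these lists, from -0.16 for other intermediate filaments to 0.29 for axonal transport, lay around the 0.11 of all genes tested, against 0.82 for the 5 neuronal filament genes.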

How the data were processed

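The members and lists were chosen with earlier results of these data known. Per the file headers, the authors' scanner files, made with Agilent Feature Extraction 8.5.1.1 (motor neurons) or 9.5.1.1 (glia), hold spot intensity and log10 ratios, Cy5 divided by Cy3. The deposited value table holds log10 ratios of transgenic over control. Mean intensity was corrected by normexp with an offset of 50 and normalized by loess in limma 3.58.1 under R 4.3.3, leaving out spots with an outlier mark. Levels were also normalized by Aquantile. Motor neuron files name genes by accession, so names came from the glia files, with Prph1 read as Prph. A gene was tested if 4 or more of 8 extracts were well above background on each of their arrays. All 16 pairs entered 1 limma fit with a mean per comparison, and the 16 control extracts another, with Benjamini-Hochberg adjustment. All members were named, with the 3 genes most like each in ratio, and of each list the members that passed, up to 5 per comparison, otherwise the 1 with the smallest p. Some genes that this rule names are not reported here. On simulated data with a log2 change of 0.5, the fit recovered 78.5% of 200 changed genes among 9391 in SOD1-G93A motor neurons. Those genes were drawn at random, with independent noise at each gene's own spread. Nefl and Nefh had standard errors of 0.314 and 0.296 in that comparison, so the rate does not describe them. Replicates are separate littermate pairs. The number of arrays limits the precision.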

Additional observations from a re-analysis of the deposited data

Results flagged for a closer look

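In each group of 4 values, the highest or lowest was compared with its nearest neighbour, and 5 of 84 groups held a value whose gap exceeded the 95% critical value of Dixon's test; chance alone marks about 1 in 20 groups. The Nefl level of 9.73 in control extract 3 of the SOD1-G93A motor neurons lay far under the other 3 (13.16 to 13.44), and is the extract with 1 spot at background. The Nefh ratio of 1.12 in SOD1-G93A glia pair 3 lay above the other pairs (-0.68 to -0.47). The Prph ratio of -0.14 in TAU-P301L glia pair 1 lay below the rest (0.06 to 0.08), near background. The Nefl level of 13.56 in transgenic extract 4 of the TAU-P301L motor neurons lay above the other 3 (12.86 to 12.91). The second Nefh probe read 7.44 in transgenic extract 1 of the SOD1-G93A glia, under 8.46 to 8.48 in the others.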

How the results depend on the processing

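No filament gene passed between transgenic and control mice in any alternative tried, over 678 recomputed ratios and differences (lowest adjusted p = 0.121). Nefm and Ina were higher in control motor neurons than glia in 24 of 24 alternatives, Prph passed in 22 of 24, Nefl in 9 of 24 and Nefh in 3 of 24. Most of these alternatives left out 1 control extract and so share most of their data. No share over all genes was computed beside these counts. Leaving out 1 control extract moved the Nefl difference between 1.16 and 1.84 and the Nefh difference between 0.59 and 1.25. Some alternatives were chosen after seeing the data: the prior spread from tested genes only, spots at background or disagreeing pairs left out, scan as a fixed block, and the second probes or left-out pairs in the co-variation.

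Same-numbered motor neuron and glia pairs correlated from -0.115 to 0.270 in their deviations, so the numbers were not shown to pair samples; with the replicate block (correlation 0.025), 0 members passed in each comparison of transgenic with control and 4 in control motor neurons against glia, and no call changed.

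Of the relations and differences that passed, 1 changed sign, the correlation of Nefl with Nefh. Where the second probes stood for both genes it was -0.268, while that of Nefl with Nefm was 0.287 and that of Nefm with Nefh 0.335, and without the pairs whose arrays disagreed that of Nefl with Nefm was 0.522. The cause was not tested. The Nefh ratio in SOD1-G93A glia was 0.27 under median centring, 0.38 as the median over probes, 0.33 in scan 3 alone and 0.33 without disagreeing pairs, and that of Nefl was -0.14 over probes. In scan 1 alone, Nefl and Nefh read 0.067 and 0.20 in SOD1-G93A motor neurons, Nefl, Nefh and Ina -0.28, -0.082 and -0.06 in TAU-P301L motor neurons, and the differences between these were 0.34 and 0.28 for Nefl and Nefh. The Nefh difference between SOD1-G93A motor neurons and glia was -0.13 by Agilent log ratios, -0.125 by the authors' deposited ratios, -0.863 by median centring, -0.012 with an offset of 10, -0.55 over probes, -0.003 with background spots left out and -0.44 without disagreeing pairs. The TAU-P301L difference of Nefm was -0.26, -0.21 and -0.078 by Agilent ratios, deposited ratios and offset 10, and that of Ina 0.006 by median centring, 0.057 without background spots and 0.004 without disagreeing pairs. Between models in glia, Nefh read 0.14 over probes, and Nefl 0.49 and Nefm 0.007 without disagreeing pairs. Between colonies, the 75th percentile gave -0.11 for Nefh and -0.063 for Ina in motor neurons and -0.11, 0.082 and -0.19 for Nefl, Nefm and Nefh in glia; Agilent signals gave -0.036 and -0.11 for Nefl and Nefh in glia, and leaving out background spots -0.36 and -0.37 for Nefl and Nefh in motor neurons.

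With 1 pair left out, the ratios ranged from -0.33 to 0.15 (Nefh, SOD1-G93A motor neurons), -0.48 to 0.35, -0.16 to 0.13 and -0.55 to 0.047 (Nefl, Nefm and Nefh, SOD1-G93A glia), and -0.10 to 0.20, -0.008 to 0.44 and -0.009 to 0.078 (Nefl, Nefh and Ina, TAU-P301L motor neurons). Differences ranged from -0.63 to 0.20 and -0.20 to 0.44 (Nefl and Nefh, SOD1-G93A motor neurons minus glia), -0.55 to 0.008 (Nefh, between models in motor neurons), and -0.083 to 0.28, -0.48 to 0.026 and -0.041 to 0.047 (Nefm, Nefh and Ina, TAU-P301L motor neurons minus glia). Between colonies they ranged from -0.30 to 0.93, -0.48 to 0.86 and 0.00 to 0.23 in motor neurons (Nefl, Nefh and Ina) and from -0.05 to 0.68, -0.27 to 0.11 and -0.047 to 0.47 in glia (Nefl, Nefm and Nefh). Signal near background limits Prph everywhere and Ina in glia.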
